A study of Homo sapiens with 4 samples.

Results

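The genes described here make 7SK, 7SL, Y and vault RNAs, the short noncoding RNAs that the GENCODE 29 annotation of GRCh38 groups as misc_RNA, together with their many copies. Members were the misc_RNA genes with 40 or more counts summed over the 4 libraries, and they were grouped by symbol. There were 231 of them among 2207 misc_RNA genes and 60483 gene rows in all: 37 of class 7SK, 159 of 7SL, 21 of Y RNA, 3 of vault RNA and 11 others. The total count was the only measured value the rule used. A gene with counts in 1 group only could reach that total, and a gene with more counts is called more readily, so the counts of called members below are descriptions. RNY1P13 and RN7SKP186, just inside the threshold, had 40 counts each, as did 8 other members, and RN7SKP78 and RN7SL468P, just outside it, had 39 each.

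The cells were C4-2, an established human prostate cancer line, at passage 20 to 30. The 2 C4-2-ENZ libraries came from cells labelled enzalutamide-resistant and the 2 C4-2-CON libraries from cells labelled control. The labels say that cells were kept with or without enzalutamide, an antiandrogen, for 1 month, so resistance and the presence of the drug cannot be told apart. RNA was extracted as total RNA. The labels name no poly(A) selection and no rRNA depletion. The growth protocol names medium with serum and also FGF-2, without saying which cells received FGF-2. The labels do not say that replicates were separate cultures, so the p-values reflect only how far these libraries lie apart, a spread that can be technical.

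The 4 families are made by RNA polymerase III. The 7SK RNA forms a nuclear particle that holds the elongation kinase P-TEFb inactive through the HEXIM proteins, with MEPCE and LARP7 guarding the ends of the RNA. The 7SL RNA is the scaffold of the signal recognition particle, which brings ribosomes making secreted proteins to the endoplasmic reticulum, and it is also the ancestor of the Alu repeats of primates. Y RNAs are small stem-loop RNAs bound by the Ro protein RO60 and the La protein SSB, and vault RNAs are a small part of the vault, a large hollow particle built mainly of the major vault protein MVP. The 7SK, 7SL and Y RNA families have left copies all over the genome, most of them called pseudogenes.

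RN7SK, the most abundant member, and the 3 vault RNAs are shown because results turn on them. All are transcript sequences of GENCODE 29 on GRCh38, with T for U. The first 120 bases of RN7SK (chr6:52995620-52995950, plus strand, 331 bases) carry all 3 GATC motifs of the RNA in capitals, at positions 13, 42 and 64. The motif is known as part of the HEXIM1 binding region.

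RN7SK: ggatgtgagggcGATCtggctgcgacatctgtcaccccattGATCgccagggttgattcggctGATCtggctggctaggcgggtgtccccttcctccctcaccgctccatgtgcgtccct

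The 3 vault RNA genes lie side by side on the plus strand of chromosome 5, at chr5:140711275-140711373 for VTRNA1-1, chr5:140718925-140719013 for VTRNA1-2 and chr5:140726158-140726246 for VTRNA1-3. The capitals mark GTTCGANNC, the form of the internal B box promoter searched for, on the RNA strand only. All 3 members of the class hold it, against 0 of the other members and 1.36% of all 2207 misc_RNA genes. The 3 RNAs begin with the same 29 bases.

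VTRNA1-1: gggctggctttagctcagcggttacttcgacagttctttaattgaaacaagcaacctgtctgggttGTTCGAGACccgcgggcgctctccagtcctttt
VTRNA1-2: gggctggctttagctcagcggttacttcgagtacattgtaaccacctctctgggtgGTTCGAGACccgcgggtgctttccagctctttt
VTRNA1-3: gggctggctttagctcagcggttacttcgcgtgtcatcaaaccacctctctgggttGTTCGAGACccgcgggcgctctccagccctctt

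The libraries held 45033885 and 39047453 gene counts in C4-2-ENZ, against 25589724 and 29866008 in C4-2-CON. They differed in makeup. Reads not aligned made up 20.5% ± 0.242 of the HTSeq records in C4-2-ENZ and 35.6% ± 1.98 in C4-2-CON (SD, n = 2 each), and all records that were not assigned to a gene 56.1% ± 1.03 and 72.7% ± 2.34. Luminal prostate markers summed to 4620 and 4625 counts per 1000000 (CPM, TMM scaled) in C4-2-ENZ, against 3252 and 3277 CPM in C4-2-CON, and all 10 passed the filter. The 4 leukocyte markers summed to at most 0.393 CPM and the 4 erythroid markers to at most 0.313 CPM in any library, with CD3E and HBB at 0 counts. The 6 fibroblast markers summed to between 8.66 and 11.1 CPM, with COL1A2 at 0 counts, and the 3 endothelial markers to between 2.74 and 4.67 CPM, nearly all of it VWF. The part of library makeup in the results was not tested.

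RN7SK was the most abundant member by far and was lower in C4-2-ENZ when set against the other gene counts. It had 60088 and 63315 CPM in C4-2-ENZ, against 124239 and 119439 CPM in C4-2-CON. The C4-2-ENZ libraries were both below both C4-2-CON libraries, by more than the difference within either pair. RN7SK fell by 0.98 on the log2 scale (SE 0.028, adjusted p = 1.28e-10 by edgeR's quasi-likelihood test), to 0.506 times its C4-2-CON level. It held 6.45% and 6.74% of gene counts in C4-2-ENZ, against 11.5% and 11.2% in C4-2-CON. The widest of the 95% Wilson intervals of these shares, for C4-2-CON replicate 1, ran from 11.52% to 11.545% and covers counting error only.

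This fall depends on the denominator. The raw counts of RN7SK were 2905540 and 2632253 in C4-2-ENZ, against 2951170 and 3342793 in C4-2-CON, while the other genes together had more counts in C4-2-ENZ. Of all HTSeq records, RN7SK took 2.88% and 2.91% in C4-2-ENZ, against 2.95% and 3.24% in C4-2-CON. With scaling by all HTSeq records, a setting chosen after seeing the data, its log2 fold change was -0.098 (adjusted p = 0.45). It was -0.40 with scaling by aligned records and -0.61 with a correction for length and GC content, and called in both. The all-gene median moved by 0.88 (log2) under that scaling. With scaling by aligned records it moved by 0.58, and with scaling by total gene counts by 0.20. The median log2 fold change of the members lay below that of all genes by 1.04 with TMM. A change of scaling moves every gene by about the same amount, so it leaves this gap nearly as it is by construction, while the length and GC correction left a gap of 0.58. All changes below are relative to the TMM scale, on which the median of all genes was -0.016.

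**Figure D1:**
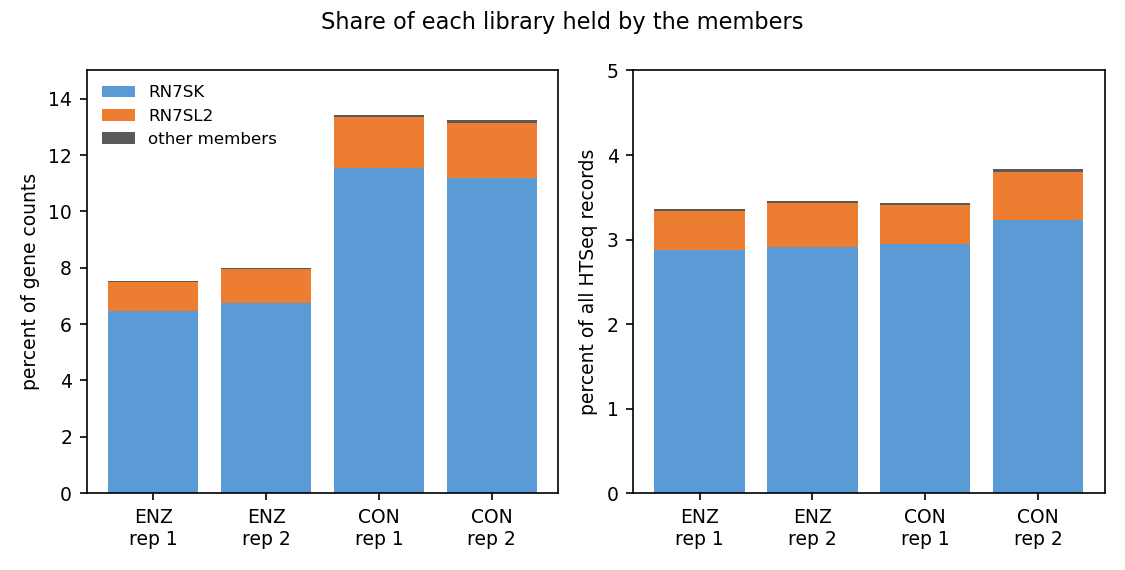
Share of each library held by RN7SK, RN7SL2 and the other 229 members, as percent of gene counts (left) and of all HTSeq records (right), with 1 bar per library, the C4-2-ENZ libraries left of the C4-2-CON libraries. The 231 members held 7.53% and 8.01% of gene counts in C4-2-ENZ against 13.4% and 13.2% in C4-2-CON, but 3.36% and 3.45% of all records against 3.43% and 3.83%.

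All 231 members together held 7.77% ± 0.337 of gene counts in C4-2-ENZ and 13.3% ± 0.122 in C4-2-CON (SD, n = 2 each). Without RN7SK the shares were 1.17% ± 0.133 and 1.97% ± 0.118. With 2 libraries a group an exact permutation test of a share cannot reach 0.05, so none was run. Since these are bulk samples, fewer cells that make an RNA and less of it per cell cannot be told apart.

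Across the members, 161 of 231 were lower in C4-2-ENZ (69.7%), 3 were higher and 67 were not called. Of all 19917 genes tested, 64.7% were called at the same threshold, an adjusted p below 0.05, with 31.8% lower and 32.9% higher. Higher genes made up 50.9% of all calls with TMM, 65.1% with total counts, 85.9% with aligned records and 93.9% with all records. With scaling by all records 43 members were lower and 19 higher, against 4.66% lower and 72.0% higher among all genes tested. The median log2 fold change of the members was -1.06, and 127 members were both called and at least 2-fold lower. The share of all genes at that fold was not computed. The 5th and 25th percentiles of log2 fold change of all genes tested were -1.30 and -0.50. Both C4-2-ENZ libraries lay below both C4-2-CON libraries for 190 members, and above them for 7. Among all genes tested the same held for 41.2% and 40.4%. DESeq2 called 101 members lower and 1 higher, with a median of -1.06, against 24.2% lower and 27.6% higher among all genes. A correction for length and GC content left 95 lower and 10 higher, with a median of -0.60, against 33.0% lower and 31.1% higher among all genes. The share of members called lower is nearer to that of all genes with this correction than without it.

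Length was set beside the result. The members were 81 to 358 bases long, and the 660 other tested genes of under 400 exonic bases also had a median below zero, at -0.52, with 39.8% lower and 8.79% higher. The 18832 genes of 400 or more exonic bases had a median of 0.0063. By class, median length and median log2 fold change were 319 bases and -1.06 for 7SK, and 297 bases and -1.10 for 7SL. They were 105 bases and -0.79 for Y RNA, 89 bases and -0.92 for vault RNA, and 174 bases and -0.47 for the others. The part of length in the members' change was not tested beyond the length and GC correction above.

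**Figure D2:**
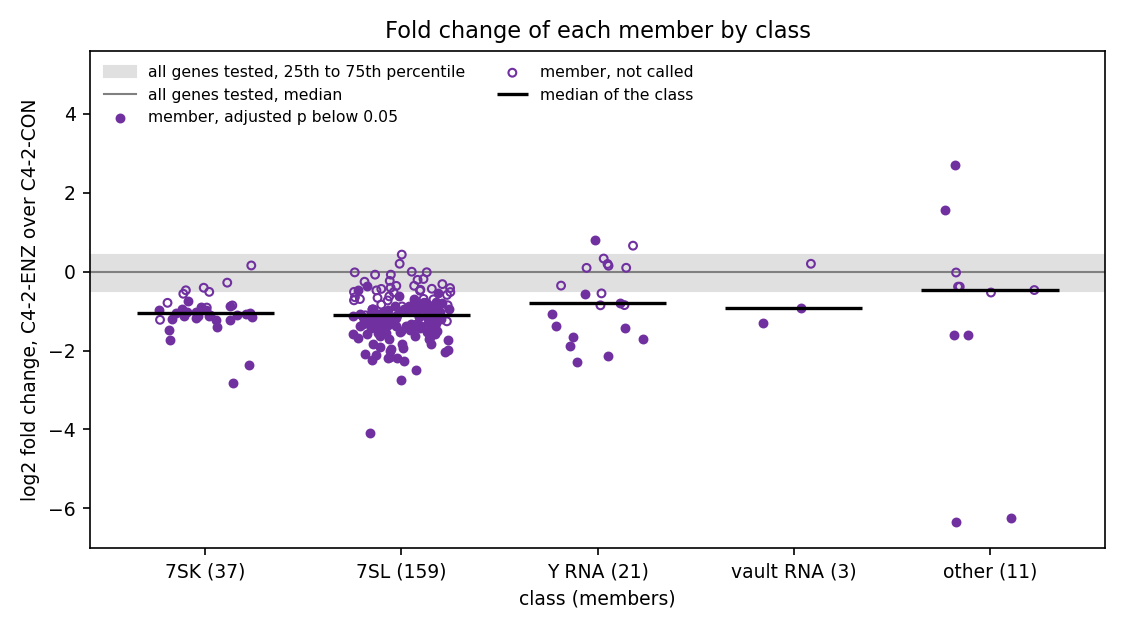
Log2 fold change (C4-2-ENZ over C4-2-CON) of each of the 231 members by class, with the class median as a black line and the middle 50% of all genes tested in grey. The medians of 7SK (-1.06), 7SL (-1.10), Y RNA (-0.79) and vault RNA (-0.92) lie below the grey band, which runs from -0.50 to 0.42, and that of the other members (-0.47) lies within it. The lowest 2 points of the last class have 3 and 1 counts in C4-2-ENZ, so their height depends on the prior count of the fit.

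Of the 36 copies of RN7SK, 26 were lower, 0 were higher and 10 were not called, against 31.8% lower among all genes tested. Their log2 fold changes ran from -2.81 to 0.16, and their median log2 fold change was -1.06, beside -0.98 for RN7SK. No member of the class was called higher by edgeR, 0 were at an unadjusted p below 0.05, and 0 were by DESeq2, which called 14 members of the class lower. The copies shared 62.5% to 90.03% of the bases of RN7SK. The median was -1.09 for the 14 copies of up to 80% identity, -1.04 for the 16 between 80% and 85% and -1.14 for the 6 above that. The 23 copies of at least 95% of the length of RN7SK had a median of -1.02 and the 13 shorter ones -1.11. How many reads of RN7SK were assigned to its copies cannot be read from a count table, so values of single copies are uncertain.

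RN7SKP80 (chr22:42565048-42565330), which lies in an intron of the pseudogene RRP7BP on the same strand, was the most abundant copy. It had 10.3 and 13.3 CPM in C4-2-ENZ, against 16.5 and 102.7 CPM in C4-2-CON, so the spread within C4-2-CON was wider than the gap between the groups. Its log2 fold change was -2.37 with all libraries (adjusted p = 0.0031) and -0.49 without C4-2-CON replicate 2, and RN7SKP80 was not called by DESeq2 (adjusted p = 0.077). RN7SKP203, contained in no other gene of at least 1000 bases, showed the same spread, with 8.71 and 9.04 CPM in C4-2-ENZ against 18.3 and 39.7 CPM in C4-2-CON. The log2 fold change of RN7SKP203 was -1.73 with all libraries and -1.04 without C4-2-CON replicate 2. RN7SKP255 had a narrow spread, with 8.38 and 9.21 CPM in C4-2-ENZ against 17.3 and 19.3 CPM in C4-2-CON, and it fell by 1.06 on the log2 scale. RN7SKP150, in an intron of MRNIP on the other strand, had the largest fall of the class, with 18 and 12 counts in C4-2-ENZ against 59 and 63 counts in C4-2-CON (log2 fold change -2.81, SE 0.23, adjusted p = 6.85e-07). MRNIP itself had a log2 fold change of -0.026 and was not called.

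RN7SL2 (chr14:49862550-49862849, minus strand) carried almost all counts of the 7SL class. RN7SL2 had 9600 and 11446 CPM in C4-2-ENZ, against 19398 and 20801 CPM in C4-2-CON, with no overlap. It fell by 0.93 on the log2 scale (SE 0.063, adjusted p = 1.26e-07), but its log2 fold change was -0.057 with scaling by all records, where it was not called. RN7SL3 (chr14:49853616-49853914, minus strand) had a larger fall, to 26.3 and 26.5 CPM in C4-2-ENZ, against 112.0 and 129.9 CPM in C4-2-CON (log2 fold change -2.20, SE 0.066, adjusted p = 1.91e-10). Its raw counts were lower too, at 1274 and 1103 in C4-2-ENZ against 2660 and 3635 in C4-2-CON. With scaling by all records the log2 fold change of RN7SL3 was -1.32 (adjusted p = 2.09e-25). The RNAs share 288 of the 300 bases of RN7SL2 and differ by 11 substitutions and 1 base more in RN7SL2. Reads that span none of these fit both genes, so the split of reads between RN7SL2 and RN7SL3 is uncertain. RN7SL1, which shares 295 bases with RN7SL2, had 0 counts in every library.

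RN7SL4P, in an intron of ANKRD28 on the other strand, had 54.6 and 52.1 CPM in C4-2-ENZ, against 78.7 and 69.2 CPM in C4-2-CON. It fell by 0.47 with TMM but was higher by 0.42 with scaling by all records. RN7SL151P had 39.7 and 45.6 CPM in C4-2-ENZ, against 76.6 and 84.7 CPM in C4-2-CON, and fell by 0.92. Per kilobase of RNA, the mean level in C4-2-ENZ was 186408 CPM for RN7SK, 35075 for RN7SL2, 181 for RN7SL4P, 160 for VTRNA1-3, 151 for RN7SL151P, 88.4 for RN7SL3 and 80.05 for RNY1. In C4-2-ENZ the SDs of VTRNA1-3 and RN7SL151P overlapped, as did those of RN7SL3 and RNY1. In C4-2-CON the same order began with RN7SK at 368092 CPM per kilobase and RN7SL2 at 66997, and RN7SL3 came next at 404, within the SD of VTRNA1-3 at 393.

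**Figure D3:**
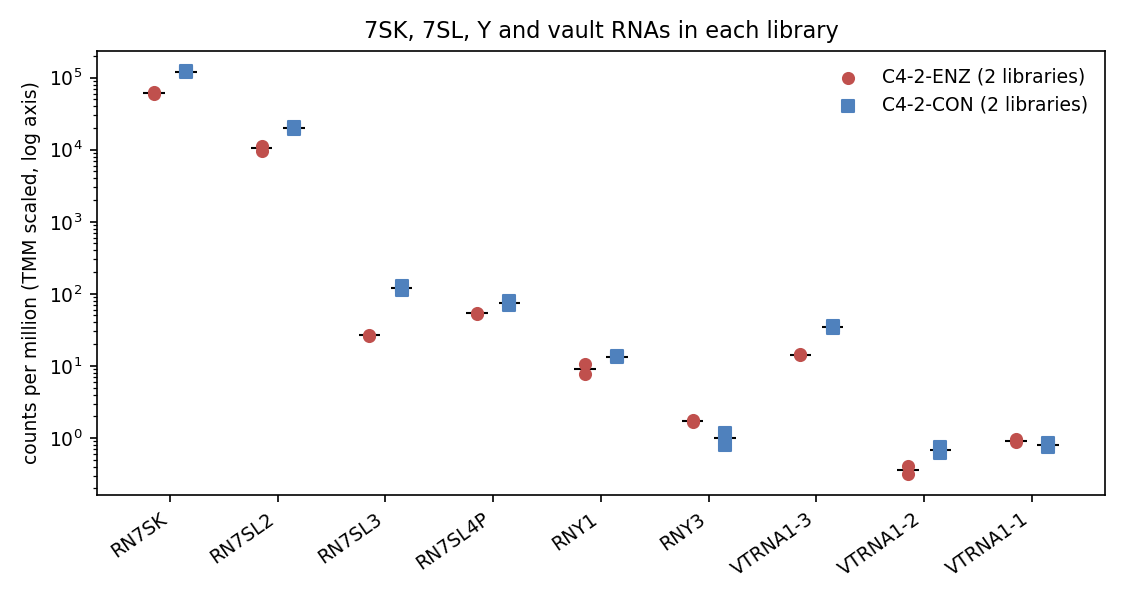
CPM (TMM scaled, log axis) of 9 members in each library, with C4-2-ENZ as red circles left of C4-2-CON as blue squares and the mean of each pair as a black line. RN7SK, RN7SL2, RN7SL3 and VTRNA1-3 sit lower in C4-2-ENZ, and RNY3 sits higher at 1.65 and 1.76 against 1.18 and 0.786.

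Among all 159 members of class 7SL, 118 were lower (74.2%, against 31.8% of all genes tested), 0 higher and 41 not called by edgeR. The class median was -1.10. At an unadjusted p below 0.05, 0 were higher, and by DESeq2 0. Of the 132 copies of at least 95% of the length of RN7SL2, 98 were lower (median -1.12), and of the 26 shorter ones 19 were lower (median -1.05). The 40 members of over 85% identity to RN7SL2 had 36 lower and a median of -1.12, and the 42 of up to 80% had 25 lower and a median of -0.99. The largest falls among called copies rested on few counts or largely on C4-2-CON replicate 2. RN7SL397P, in an intron of AC092910.3, had 2 and 9 counts in C4-2-ENZ against 12 and 101 counts in C4-2-CON. The log2 fold change of RN7SL397P was -4.10 with all libraries and -2.02 without C4-2-CON replicate 2. RN7SL357P had 34 and 27 counts in C4-2-ENZ against 35 and 168 in C4-2-CON, with a log2 fold change of -2.50 that became -1.12 without C4-2-CON replicate 2. RN7SL187P, opposite to the pseudogene GGTA1P, had an even fall, with 6 and 7 counts in C4-2-ENZ against 20 and 31 counts in C4-2-CON (log2 fold change -2.74, adjusted p = 4.36e-05).

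C4-2-CON replicate 2 was more than 2-fold above C4-2-CON replicate 1 in CPM for 23 members, 19 of them 7SL. It was more than 2-fold below it for 2. Members had a median of 83 counts in all, and the share over all genes was not computed. The median ratio of C4-2-CON replicate 2 to replicate 1 was 1.17 for the members and 0.996 for all genes tested. By class it was 1.13 for 7SK, 1.25 for 7SL, 0.958 for Y RNA, 0.891 for vault RNA and 0.849 for the others. In C4-2-ENZ, replicate 1 was more than 2-fold above replicate 2 for 5 members and more than 2-fold below it for 9. Without C4-2-CON replicate 2, the median log2 fold change of the members was -0.91, beside -0.012 for all genes.

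Of the Y RNA parent genes, RNY1 was called lower and RNY3 higher. RNY1 (chr7:148987136-148987248, minus strand) had 7.65 and 10.4 CPM in C4-2-ENZ, against 13.7 and 13.1 CPM in C4-2-CON, and fell by 0.57 on the log2 scale (SE 0.12, adjusted p = 0.00154), but was higher by 0.31 with scaling by all records, by 0.0074 with aligned records and by 0.16 with the length and GC correction. RNY3 (chr7:148983755-148983856, plus strand) rose, with 80 and 73 counts in C4-2-ENZ against 28 and 22 counts in C4-2-CON. Its log2 fold change was 0.81 (SE 0.22, adjusted p = 0.00752), and it was positive under every scaling. RNY3 was not called by DESeq2 (adjusted p = 0.077) or without C4-2-CON replicate 2 (adjusted p = 0.094). RNY4 had 0 and 2 counts in C4-2-ENZ and 5 and 2 counts in C4-2-CON, under the threshold, and RNY5 was not analysed here.

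Of all 21 members of the Y RNA class, 10 were lower (47.6%, against 31.8% of all genes tested), 1 was higher and 10 were not called. The class median was -0.79. Without C4-2-ENZ replicate 1 the class median was -0.74, and the share of the class called lower was near that of all genes tested. The class median turned to 0.085 with scaling by all records and to 0.055 with the length and GC correction. The 3 largest falls were all copies inside another gene on the same strand. The copy in an intron of TOP2A (chr17:40391232-40391338), the topoisomerase of dividing cells, had 8 and 7 counts in C4-2-ENZ against 19 and 24 in C4-2-CON (log2 fold change -2.29, adjusted p = 0.000129), and TOP2A had a log2 fold change of -0.66. RNY1P16, in an intron of CHPT1, which makes phosphatidylcholine, had 15 and 8 counts in C4-2-ENZ against 32 and 27 in C4-2-CON, a log2 fold change of -2.15 beside -0.88 for CHPT1. The copy in an exon of FNBP4 (chr11:47726894-47726992) had 15 and 12 counts in C4-2-ENZ against 27 and 31 in C4-2-CON, with log2 fold changes of -1.89 for the copy and -0.58 for FNBP4. The copy opposite to KMT2C (chr7:152402780-152402893) had 31 and 26 counts in C4-2-ENZ against 16 and 26 in C4-2-CON and was not called.

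Of the 3 vault RNAs, VTRNA1-3 and VTRNA1-2 were called lower and VTRNA1-1 was not called. VTRNA1-3 was the most abundant, with 13.9 and 14.5 CPM in C4-2-ENZ against 36.1 and 33.8 CPM in C4-2-CON. It fell by 1.29 on the log2 scale (SE 0.062, adjusted p = 6.77e-09) and was also lower with scaling by all records (log2 fold change -0.41, adjusted p = 0.00168). VTRNA1-2 had 15 and 17 counts in C4-2-ENZ against 18 and 17 counts in C4-2-CON. Its log2 fold change was -0.92 (adjusted p = 0.0287), and it was not called by DESeq2 (adjusted p = 0.21), without C4-2-ENZ replicate 1 (adjusted p = 0.149) or without C4-2-CON replicate 1 (adjusted p = 0.140). Nor was VTRNA1-2 called with total count scaling (adjusted p = 0.071), with no filter (0.061), with the length and GC correction (0.35), or with scaling by aligned (0.38) or all records (0.92). VTRNA1-1 had 46 and 36 counts in C4-2-ENZ against 20 and 21 counts in C4-2-CON. VTRNA1-1 had a log2 fold change of 0.20 (SE 0.24, adjusted p = 0.525), and with scaling by all records 1.08 (adjusted p = 0.00029). By edgeR it was also called higher with scaling by aligned records (0.78, adjusted p = 0.0131) and with the length and GC correction (0.79, adjusted p = 0.0123). The difference in change between VTRNA1-1 and VTRNA1-3 was not tested. VTRNA2-1, a gene of another annotated type, had 1 count in all.

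Among the 11 other members, 2 rose (18.2%), 4 fell (36.4%) and 5 were not called. Among all genes tested 32.9% were higher and 31.8% lower, so the share that fell is near that of all genes. The 2 that rose, ENSG00000278592 and ENSG00000277966, lie in exons of HOXA11-AS, a long noncoding RNA of the HOXA cluster, on its strand. ENSG00000278592 had 32 and 26 counts in C4-2-ENZ against 3 and 2 in C4-2-CON (log2 fold change 2.69, adjusted p = 0.000301). ENSG00000277966 had 28 and 14 counts in C4-2-ENZ against 4 and 4 in C4-2-CON (log2 fold change 1.57, adjusted p = 0.0166), and it was not called by DESeq2 (adjusted p = 0.12) or without C4-2-ENZ replicate 1 (adjusted p = 0.138). HOXA11-AS had a log2 fold change of 2.28. Both members in it reached the count threshold mostly through C4-2-ENZ, so their rise is a description only. ENSG00000274326, in an intron of PCA3, a prostate cancer marker RNA, had 12 and 9 counts in C4-2-ENZ against 13 and 24 in C4-2-CON. Its log2 fold change was -1.60 (adjusted p = 0.00271, but 0.052 without C4-2-CON replicate 2, 0.135 with the length and GC correction and 0.096 with scaling by all records), beside -1.91 for PCA3. ENSG00000274051, in an exon of the lysyl hydroxylase gene JMJD6, had 7 and 11 counts in C4-2-ENZ against 16 and 16 in C4-2-CON and fell by 1.61.

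ENSG00000278775 (chr21:8433085-8433174) and ENSG00000277671 (chr21:8250060-8250149) lie 6649 and 6632 bases before annotated 5.8S ribosomal RNA genes, which are both named RNA5-8SN2. ENSG00000278775 had 3 and 0 counts in C4-2-ENZ against 21 and 136 counts in C4-2-CON (adjusted p = 0.000166). ENSG00000277671 had 0 and 1 counts in C4-2-ENZ against 4 and 54 counts in C4-2-CON (adjusted p = 0.00131). In both, C4-2-CON replicate 2 held most of the counts. The ratio of C4-2-CON to C4-2-ENZ was 90.9 for ENSG00000278775 (95% exact interval 30.6 to 446, for counting error only) and 101 for ENSG00000277671 (17.4 to 4049). Without C4-2-CON replicate 2 the ratio was 26.5 (7.91 to 139) for ENSG00000278775 and 15.1 (1.5 to 746) for ENSG00000277671, whose adjusted p became 0.046. Both genes reached the count threshold almost only through C4-2-CON. The 5 members not called had between 8 and 43 counts per library. ENSG00000277916 lies in an exon of SRSF4 (log2 fold change -0.47), ENSG00000278413 opposite to CDK8 (-0.021), ENSG00000277542 in an exon of PRAC2 (-0.53), ENSG00000273571 in an intron of ST7 (-0.38) and ENSG00000275227 in an intron of TOP2B (-0.38).

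Position in the genome was not part of the rule. Of the members, 113 lay wholly inside another gene of at least 1000 bases on the same strand and 41 inside one on the opposite strand only. The other 77, here termed outside, were contained in no such gene, though a partial overlap was not excluded. The count of lower members was 57 of the 77 outside (median -1.13), 82 of the 113 on the same strand (median -1.05) and 22 of the 41 on the opposite strand (median -0.85). Among all genes tested 31.8% were lower. Outside, the median was -1.12 for 7SK and -1.20 for 7SL, but 0.26 for the 4 Y RNA members, with 1 lower and 1 higher. The 10 Y RNA members on the same strand had a median of -1.55, with 7 lower. The 7 on the opposite strand had a median of -0.55, with 2 lower. The 3 members that rose were RNY3, outside, and the 2 in HOXA11-AS. The strand setting of the counting is not stated, so reads of a member and of an unspliced host cannot be told apart in either orientation.

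The change of members went with that of the genes they lie in, but lower. On the same strand, 95 members had a tested host. These hosts had a median log2 fold change of 0.22, against -1.05 for the members, and 89 of the 95 members lay below their host. The Pearson correlation was 0.48 and Spearman's rho 0.42 over these 95 pairs, given as a description, since all points come from the same 4 libraries and 1 scaling. On the opposite strand the correlation was 0.37 over 32 pairs, all 32 of which had the member below the host. Of the 46 same-strand members whose host was called higher, 28 were called lower, and of the 26 whose host was called lower, 22 were.

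**Figure D4:**
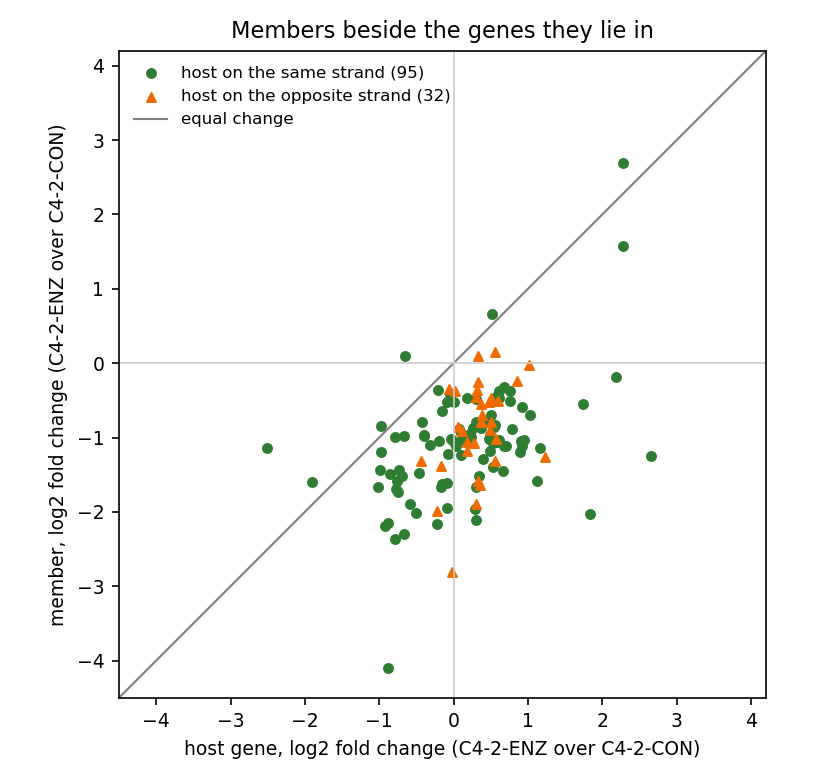
Log2 fold change (C4-2-ENZ over C4-2-CON) of each member against that of the gene it lies in, for 95 pairs on the same strand (circles) and 32 on the opposite strand (triangles), with the line of equal change. Nearly all points lie below the line, and the 2 at the upper right are the members in exons of HOXA11-AS.

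The genes of the proteins that bind these RNAs did not follow 1 direction, and the lists below stand beside 32.9% higher and 31.8% lower among all genes tested. Among 10 genes of the 7SK particle and P-TEFb, 4 were higher, 3 lower and 3 not called, with a median of 0.059. HEXIM1, the inhibitor that the 7SK RNA holds against the kinase, rose to 49.3 ± 2.08 CPM in C4-2-ENZ, against 27.2 ± 0.568 CPM in C4-2-CON (SD, n = 2 each; log2 fold change 0.86, adjusted p = 7.51e-08). CDK9, the kinase subunit of P-TEFb, rose to 50.3 ± 0.561 CPM in C4-2-ENZ, against 34.0 ± 2.1 CPM in C4-2-CON (log2 fold change 0.57). MEPCE, the enzyme that caps 7SK, rose by 0.46 on the log2 scale. AFF4, a scaffold of the super elongation complex, rose by 0.18 and was not called without C4-2-ENZ replicate 2 (adjusted p = 0.078).

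The cyclin subunits CCNT1 and CCNT2 and the helicase DDX21 fell by 0.15, 0.31 and 0.18 on the log2 scale, but were higher by 0.73, 0.57 and 0.71 with scaling by all records. With scaling by total counts CCNT1 and DDX21 were higher as well, by 0.043 and 0.017. CCNT1 was not called without either C4-2-ENZ library (adjusted p = 0.178 without replicate 1 and 0.066 without replicate 2). LARP7, which binds the end of 7SK, had 58.8 ± 2.99 CPM in C4-2-ENZ and 57.1 ± 2.53 CPM in C4-2-CON and was not called. HEXIM2 and the phosphatase PPM1G were not called either, with log2 fold changes of 0.026 and 0.073.

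**Figure D5:**
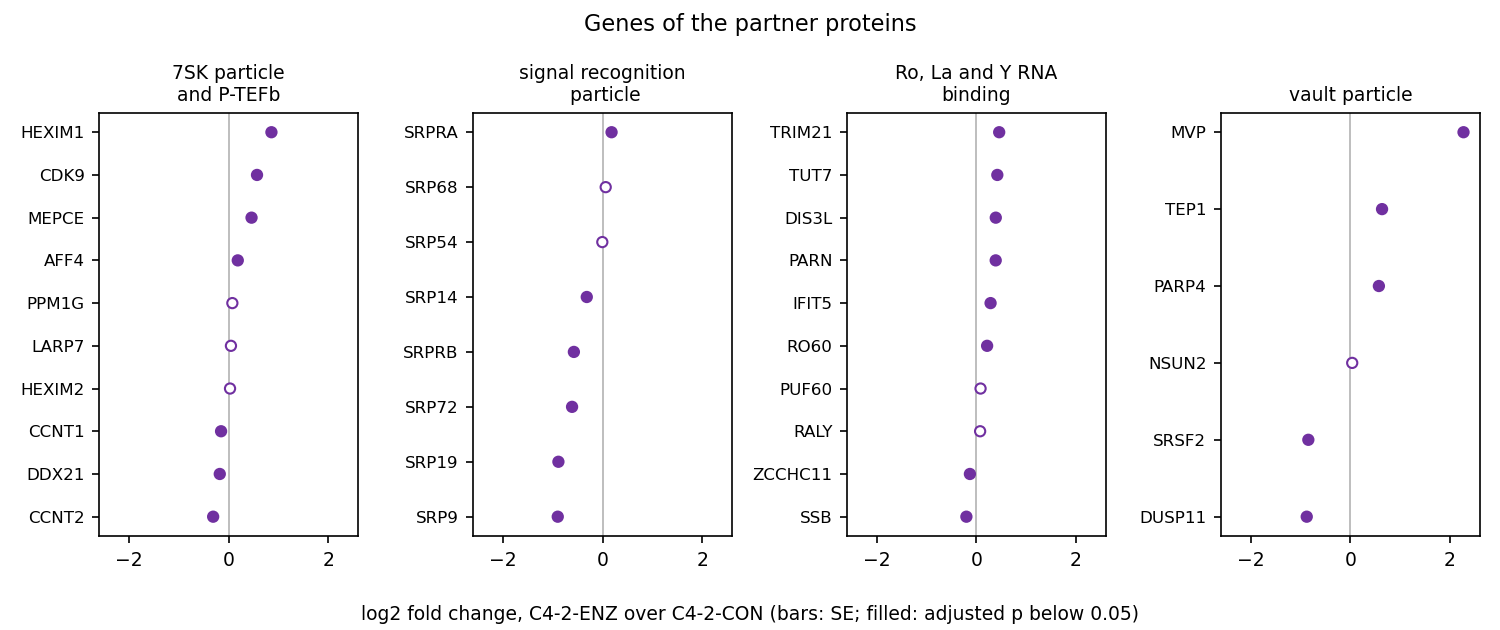
Log2 fold change (C4-2-ENZ over C4-2-CON) of the genes in 4 lists of partner proteins, with SE bars where they exceed the point, filled where the adjusted p is below 0.05. MVP (2.27) is the highest point, and SRP9, SRP19, DUSP11 and SRSF2 lie between -0.90 and -0.84. With scaling by all records CCNT1, CCNT2, DDX21, ZCCHC11, SSB, SRP14, SRP54, SRP72, SRPRB, SRSF2 and DUSP11 turn positive.

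In the signal recognition particle and its receptor, 5 of 8 genes were lower, 1 higher and 2 not called, with a median of -0.45. SRP9, which with SRP14 binds the Alu part of 7SL, fell to 303 ± 3.25 CPM in C4-2-ENZ, against 566 ± 15.7 CPM in C4-2-CON (log2 fold change -0.90, adjusted p = 1.6e-09). SRP19, which prepares 7SL for SRP54, fell by 0.89. SRP9 and SRP19 had values of -0.017 and -0.0020 with scaling by all records and were not called there. SRP72, SRPRB and SRP14 fell by 0.61, 0.58 and 0.32, but were higher by 0.27, 0.31 and 0.56 with scaling by all records. SRPRA, the other receptor subunit, rose by 0.18 and was not called without C4-2-ENZ replicate 2 (adjusted p = 0.068). SRP54, which binds signal peptides, had 133.0 ± 0.58 CPM in C4-2-ENZ and 133.6 ± 5.4 CPM in C4-2-CON, and SRP68 had a log2 fold change of 0.062.

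Of 10 genes for Ro, La and other Y RNA binding or processing proteins, 6 were higher, 2 lower and 2 not called, with a median of 0.25. TUT7, a uridylyltransferase, rose to 52.3 ± 0.0865 CPM in C4-2-ENZ, against 39.1 ± 0.231 CPM in C4-2-CON (SD, n = 2 each; log2 fold change 0.42, adjusted p = 7.21e-06 by edgeR). The exonuclease DIS3L and the deadenylase PARN each rose by 0.39. RO60 rose by 0.21. SSB fell by 0.20, with a value of 0.68 under scaling by all records, and was not called without C4-2-ENZ replicate 1 (adjusted p = 0.086).

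In the vault list, 3 of 6 genes were higher, 2 lower and 1 not called, with a median of 0.31. MVP had 658 and 531 counts in C4-2-ENZ against 69 and 72 counts in C4-2-CON. In CPM this was 13.2 ± 0.591 in C4-2-ENZ and 2.74 ± 0.235 in C4-2-CON, the largest rise among the partner lists (log2 fold change 2.27, SE 0.11, adjusted p = 5.38e-09). The other proteins of the particle rose less, TEP1 by 0.64 and PARP4 by 0.57. SRSF2, which binds a vault RNA, fell by 0.84, and its value was 0.039 with scaling by all records. MVP and VTRNA1-3 thus differed in sign in the same libraries, and this held under every scaling tried. VTRNA1-2 was negative under every scaling too. VTRNA1-1, not called with TMM, was positive under every scaling, as MVP was.

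In the RNA polymerase III list 11 of 32 genes were higher, 12 lower and 9 not called, with a median of 0.024. These shares are near the 32.9% higher and 31.8% lower of all genes tested. GTF3A, the factor that directs the polymerase to 5S ribosomal RNA genes, fell to 160 ± 0.762 CPM in C4-2-ENZ, against 509 ± 12.5 CPM in C4-2-CON (log2 fold change -1.67, adjusted p = 2.44e-11). BDP1, a subunit of the initiation factor TFIIIB, rose to 611 ± 19.4 CPM in C4-2-ENZ, against 304 ± 18.2 CPM in C4-2-CON (log2 fold change 1.01). GTF3C1, a subunit of TFIIIC, rose by 0.89. MAF1, the repressor of the polymerase, had a log2 fold change of 0.056 and was not called. The paralogous subunits POLR3G and POLR3GL, named after their values were seen, had opposite signs. POLR3GL had 19.1 ± 0.37 CPM in C4-2-ENZ and 7.75 ± 0.0603 CPM in C4-2-CON, and POLR3G 8.86 ± 0.314 CPM in C4-2-ENZ and 21.0 ± 1.85 CPM in C4-2-CON.

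Of 10 other transcripts of the polymerase listed, 7 were tested, of which 4 were lower, 0 higher and 3 not called by edgeR. At an unadjusted p below 0.05, 0 were higher, and by DESeq2 0. RPPH1, the RNA of RNase P, had 0 counts in every library, RNU6-7 was under the threshold, and SNAR-A1 was not analysed here. RNU6ATAC, of the minor spliceosome, had 126 and 131 counts in C4-2-ENZ against 235 and 256 in C4-2-CON (log2 fold change -1.73, adjusted p = 1.65e-07). RNU6-8 and RNU6-2, copies of the U6 spliceosomal RNA, fell by 0.99 and 1.04. Their log2 fold changes were -0.11 and -0.16 with scaling by all records and -0.31 and -0.34 with the length and GC correction. BCYRN1, a brain cytoplasmic RNA, fell by 0.67, with values of 0.21 with scaling by all records and -0.13 with the length and GC correction. RNU6-1 and RNU6-9 were not called, with log2 fold changes of -0.45 and -0.43. The U6 genes are nearly identical to each other, so their values are uncertain. RMRP, the RNA of RNase MRP, an enzyme of ribosomal RNA processing, had 1170 and 1068 counts in C4-2-ENZ against 487 and 886 in C4-2-CON, with a log2 fold change of -0.077 that was not called. Without C4-2-CON replicate 1 it was -0.35 and called, and without C4-2-CON replicate 2 it was 0.28.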

How the data were processed

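RNA of 2 C4-2-ENZ and 2 C4-2-CON libraries was sequenced. Each library's deposited table gives raw read counts by gene. The submitters' processing notes name STAR 2.5.2b, HTSeq and the build GRCh38 (hg38). They leave out HTSeq's version, mode and strand setting and the annotation used. The 5 rows that are not genes held 55.4% to 74.4% of the records and stayed out of library sizes.

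Identifiers were matched without version to GENCODE 29, which gave a type and position to 56753 of 60483. Class 7SK includes ENSG00000202198, whose symbol RN7SK came from its position in RefSeq. The RNA sequences were those of GENCODE 29. A host is another annotated gene of at least 1000 bases that contains the whole member. Copies were aligned to the parent RNA with Biopython 1.88, and identity is given as a percent of the parent's length.

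All 19917 genes with 40 or more counts over the 4 libraries were tested, so that every member was, by the quasi-likelihood F test (edgeR 4.0.16, R 4.3.3) after TMM scaling. The only term was group, with 2 residual degrees of freedom. Adjusted p-values follow Benjamini and Hochberg over all 19917 genes, with calls below 0.05. The SE is the log2 fold change divided by the square root of F. CPM uses TMM-scaled library sizes. The method was tested on simulated data.

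Replicates of a pair lay farther apart than sampling noise allows (chi-square per degree of freedom 2.60 in C4-2-ENZ over 20573 genes and 6.46 in C4-2-CON over 18975 genes), so each library counted as 1 replicate. Alternatives were other scalings, DESeq2 1.42.0, other filters, a replicate block, leaving out each library, a length and GC correction (99.03% of genes) and other rules of membership. Named genes were the parent RNAs, in each class the 4 members of highest mean CPM and the 3 called with the largest rise and fall, all of the class other, the members nearest the threshold, the 7SK, signal recognition particle and other polymerase III transcript lists, and from other lists the 3 called with the smallest adjusted p, with RO60, SSB, MVP, TEP1, PARP4 and MAF1. A few items are not reported here, and list counts leave them out. Members, lists and this rule were chosen with earlier results of these data known. Intervals cover counting error only, since reads without molecular identifiers are not independent molecules.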

Additional observations from a re-analysis of the deposited data

How the results depend on the processing

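Calls depend on the denominator, and 2 libraries a group limit every test. Medians below are log2 fold changes, and the causes of shifts between settings were not tested. The settings by HTSeq records were chosen after seeing the data. The replicate block rests on shared numbers only (correlation of same-numbered deviations -0.099). With the block 166 members were lower and 3 higher, against 31.9% lower and 32.7% higher among all genes tested. The median of the members was -1.06, and no named gene changed call.

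With scaling by all records 43 members were lower and 19 higher (median -0.18). Lower by class were 4 of 7SK, 33 of 7SL, 3 of Y RNA, 1 of vault RNA and 2 others, with medians of -0.18, -0.22, 0.085, -0.042 and 0.41. RN7SK was -0.098. Values that changed sign were RNY1 0.31, RN7SL4P 0.42, Y_RNA ENSG00000253088 0.52, ENSG00000277916 0.41, ENSG00000278413 0.86, ENSG00000277542 0.35, ENSG00000273571 0.49 and ENSG00000275227 0.49. Among partners they were CCNT1 0.73, CCNT2 0.57, DDX21 0.71, SRP14 0.56, SRP54 0.88, SRP72 0.27, SRPRB 0.31, SSB 0.68 and SRSF2 0.039. Among polymerase III transcripts they were RMRP 0.80, RNU6-1 0.43, RNU6-9 0.45 and BCYRN1 0.21.

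With scaling by aligned records 78 were lower and 7 higher (median -0.48), against 9.82% lower and 59.8% higher among all genes tested. Lower by class were 11, 57, 5 and 1 of 7SK, 7SL, Y RNA and vault RNA. Medians for the 5 classes were -0.48, -0.52, -0.22, -0.34 and 0.11. Sign changes were RNY1 0.0074, RN7SL4P 0.12, Y_RNA ENSG00000253088 0.22, ENSG00000277916 0.11, ENSG00000278413 0.56, ENSG00000277542 0.047, ENSG00000273571 0.19 and ENSG00000275227 0.19. Others were CCNT1 0.43, CCNT2 0.27, DDX21 0.40, SRP14 0.26, SRP54 0.58, SRPRB 0.0038, SSB 0.38, RMRP 0.50, RNU6-1 0.13 and RNU6-9 0.15.

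With total count scaling the median was -0.87, and by class -0.86, -0.90, -0.60, -0.72 and -0.27, with 1 vault RNA lower. Sign changes were ENSG00000278413 0.17, CCNT1 0.043, DDX21 0.017, SRP54 0.19 and RMRP 0.12. With TMM on protein-coding genes the Y RNA median was -0.88, and LARP7 -0.039, HEXIM2 -0.057, PPM1G -0.010, SRP68 -0.021 and MAF1 -0.027 changed sign.

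With the length and GC correction 95 were lower and 10 higher (median -0.60). Lower were 13 of 7SK, 75 of 7SL, 3 of Y RNA and 1 vault RNA, and the class medians were -0.58, -0.64, 0.055, -0.37 and 0.27. Sign changes were RNY1 0.16, Y_RNA ENSG00000253088 0.56, ENSG00000277916 0.27, ENSG00000278413 0.75, ENSG00000277542 0.012, ENSG00000273571 0.27 and ENSG00000275227 0.33. Others were HEXIM2 -0.036, SRP54 0.16, SRP68 -0.20, MAF1 -0.068, RMRP 0.24, RNU6-1 0.25 and RNU6-9 0.27.

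With DESeq2 101 were lower and 1 higher, with 14 of 7SK, 76 of 7SL, 6 of Y RNA and 1 vault RNA lower, and SRP54 was 0.0019. With filterByExpr SRP54 was 0.0029. With no filter the Y RNA, vault RNA and other medians were -0.69, -0.82 and -0.36, 1 vault RNA was lower, and ENSG00000278413 (0.084), SRP54 (0.099) and RMRP (0.028) changed sign. A mean CPM of at least 1 left 15293 genes, with 37.3% lower and 37.4% higher. Of the 73 members left, 66 were lower and 1 higher. Of these, 15 were 7SK, 48 7SL, 1 Y RNA, 1 vault RNA and 1 other, with medians of 0.081 for Y RNA, -1.33 for vault RNA and -6.37 for the 1 other member, and HEXIM2 was -0.012.

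With a minimum of 20 counts 193 of 393 members were lower (49.1%) and 3 higher, beside 27.6% lower and 29.8% higher among all genes. From 100 counts 80 of 90 members were lower and 1 higher, beside 34.1% lower and 38.2% higher among all genes with as many counts. From 400 counts 31 of 31 were lower and 0 higher, beside 35.2% and 43.3%. Outside other genes 57 of 77 were lower and 1 higher, beside 31.8% lower and 32.9% higher among all genes tested. Without RN7SK the members held 1.17% of gene counts in C4-2-ENZ and 1.97% in C4-2-CON.

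Leaving out 1 library, the median of the members was -1.14 to -0.91, beside -0.014 to -0.0088 for all genes. By class, medians were -1.11 to -0.92 for 7SK, -1.21 to -0.92 for 7SL and -0.81 to -0.61 for Y RNA. They were -1.11 to -0.72 for vault RNA and -0.79 to -0.22 for the others. RN7SK ranged from -1.01 to -0.94. Values that changed sign were LARP7 (-0.0018) and RMRP (0.28) without C4-2-CON replicate 2, and ENSG00000278413 (0.19), SRP54 (0.036) and RNU6-1 (0.12) without C4-2-CON replicate 1. Without C4-2-ENZ replicate 2 they were ENSG00000278413 (0.27), LARP7 (-0.0011) and SRP54 (0.0050). ENSG00000278413 reached -0.43 without C4-2-ENZ replicate 1, SRP54 -0.047 without C4-2-CON replicate 2 and RMRP -0.35 without C4-2-CON replicate 1.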
